A study of Mus musculus with 10 samples.

Results

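The genes described here encode proteins of B-cell receptor signalling and B-cell identity: Cd79a, Cd79b, Ms4a1, Cd22, Cd72, Blk, Blnk, Pax5 and Vpreb3. They were taken as every non-control probe that the scanner files name after one of these genes, which gave 13 of 41174 probes and 9 of the 17774 genes and unnamed transcripts tested. Messenger RNA was measured in lymphomas that arose spontaneously in 10 mice, and each tumour was hybridised to its own single-colour array of 60-base oligonucleotides. The 5 +/L tumours came from mice heterozygous for C/EBPb LIP and the 5 +/+ tumours from wild-type mice, all kept pathogen-free and untreated. C/EBPβ is a transcription factor, and LIP is its short isoform, with little of the transactivating region. The +/L mice, numbered 20, 866, 688, 23 and 517, were aged 21, 11, 18, 20 and 20 months. The +/+ mice, numbered 40, 11, 101, 17 and 19, were aged 26, 29, 26.5, 20 and 23 months. The label gives the tissue as lymphoma, with no site or cell of origin. A lower value in such bulk tissue can come from fewer B cells or from less RNA per B cell, and these cannot be told apart.

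The B-cell receptor is a membrane immunoglobulin bound to a pair of signalling chains, CD79A and CD79B. When antigen binds, SRC-family kinases such as BLK phosphorylate these chains, the kinase SYK is recruited, and the adaptor BLNK carries the signal on to phospholipase and calcium. CD22 and CD72 are surface proteins that dampen the signal by recruiting the phosphatase SHP-1. MS4A1, also called CD20, is a surface protein of B cells, PAX5 is the transcription factor that maintains B-cell identity, and VPREB3 is a protein of the secretory pathway that associates with immunoglobulin chains in B-lineage cells.

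Every value below is log2 of the processed signal relative to the 75th percentile of its array, so that 0 is that percentile. The 75th percentile lay between 309.2 and 651.4 in +/L arrays, the highest in mouse 866, and between 199.03 and 340.2 in +/+ arrays. On single arrays 48.0% to 66.7% of spots passed the scanner software's test of being well above background. Levels of different genes come from different probes and are not set against each other. The precision is limited by the number of arrays. Several arrays stand apart or sit uneasily with their labels. The description labels place the arrays of +/L mouse 866 and +/+ mouse 17 on each other's slide when compared with the file headers, and both mice are labelled female, so that sex-linked transcripts cannot tell them apart. The labelled sex was met by Xist and the Y-linked Ddx3y, Eif2s3y and Kdm5d on 8 of 10 arrays; +/L mouse 20 and +/+ mouse 11 are labelled male, and their arrays showed Xist and none of the Y-linked genes. By the headers, slide 1 held +/L mice 20 and 688 with +/+ mice 40 and 17, slide 2 held +/L mice 23 and 517 with +/+ mouse 11, and slide 3 held +/L mouse 866 with +/+ mice 101 and 19. Slides were also scanned apart from each other.

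All 13 probes were well above background on all 10 arrays, so B-lineage transcripts were measured in every tumour. Probes of 5 genes are shown because the values of Cd79a, Cd22, Cd72, Blk and Pax5 below are the readings of these oligonucleotides. No annotation of coding sequence was used. Positions are in mm9 as the files give them, and a span longer than the probe's 60 bases means that the probe crosses an intron. The Cd79a probe lies at chr7:25684353-25684610 (plus strand), the Blk probe at chr14:63997333-63998470, the Pax5 probe at chr4:44550354-44582908 and the Cd22 probe at chr7:31651590-31651649 (minus strand each). Capitals in the Cd22 probe mark the 6 codons, bases 14 to 31, of a tyrosine motif of the kind that recruits SHP-1. Capitals in the 2 Cd72 probes, at chr4:43463070-43465214 and chr4:43463042-43465186 on the minus strand, mark the 32 bases they share.
Cd79a: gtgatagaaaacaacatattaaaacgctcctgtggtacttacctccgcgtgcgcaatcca
Blk: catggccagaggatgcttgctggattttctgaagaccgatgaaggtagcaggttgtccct
Pax5: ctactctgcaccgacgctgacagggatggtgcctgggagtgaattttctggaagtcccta
Cd22: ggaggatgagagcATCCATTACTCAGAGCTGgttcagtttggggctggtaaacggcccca
Cd72, brighter probe: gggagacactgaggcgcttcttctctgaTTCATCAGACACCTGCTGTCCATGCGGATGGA
Cd72, dimmer probe: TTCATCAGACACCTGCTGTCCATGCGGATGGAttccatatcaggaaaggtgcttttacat

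Each signalling chain of the receptor varied by less than 1 log2 unit over 9 tumours and was far lower in 1. Cd79a, the first chain, read 1.55 in +/L mouse 20, -1.52 in mouse 866, 1.13 in mouse 688, 1.21 in mouse 23 and 1.18 in mouse 517. In +/+ tumours it read 1.20, 1.12, 1.44, 0.63 and 0.68 in mice 40, 11, 101, 17 and 19. The groups overlapped, and the single low value was that of the youngest mouse, 866. Cd79b, the partner chain, showed the same layout. It read 6.93, 4.56, 7.11, 7.16 and 7.44 in +/L mice 20, 866, 688, 23 and 517, against 7.06, 7.18, 7.23, 6.77 and 6.74 in +/+ mice 40, 11, 101, 17 and 19. Set against the mean of the other 4 +/L tumours, mouse 866 differed by -2.79 for Cd79a and by -2.61 for Cd79b. Those 4 tumours averaged 1.27 ± 0.19 for Cd79a and 7.16 ± 0.21 for Cd79b (SD, n = 4), and the gap in mouse 866 was many times their spread. Mouse 866 was set apart for its low values, so this spread is no test of the gap.

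The kinase that acts on the chains and the adaptor that carries their signal on also had their lowest values in mouse 866. Blk read -0.07, -2.29, -0.30, 1.32 and 0.52 in +/L mice 20, 866, 688, 23 and 517, against -0.23, 0.67, 0.62, 0.12 and -0.23 in +/+ mice 40, 11, 101, 17 and 19. Its highest value, in +/L mouse 23, and its lowest, in +/L mouse 866, bracket all +/+ tumours. Blnk read 6.98, 5.51, 6.76, 7.30 and 7.21 in +/L mice 20, 866, 688, 23 and 517, against 6.95, 7.77, 7.09, 6.86 and 6.61 in +/+ mice 40, 11, 101, 17 and 19. Here the highest tumour was +/+ mouse 11, and the remaining 8 tumours lay between 6.61 and 7.30.

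The inhibitory receptors had layouts of their own. Cd22 read 2.47, 2.76, 3.81, 4.86 and 4.16 in +/L mice 20, 866, 688, 23 and 517, against 3.46, 4.13, 3.76, 4.01 and 3.86 in +/+ mice 40, 11, 101, 17 and 19. Both low values were in +/L tumours, mice 20 and 866, and the highest was in +/L mouse 23, so the SD was 0.99 in +/L tumours and 0.25 in +/+ tumours (n = 5 each). Cd72 read 2.78, 4.51, 3.76, 4.73 and 4.67 in +/L mice 20, 866, 688, 23 and 517, against 6.43, 4.54, 4.80, 6.16 and 4.24 in +/+ mice 40, 11, 101, 17 and 19. The top values were those of +/+ mice 40 and 17, more than 1 log2 unit above every other tumour, and the lowest was that of +/L mouse 20. Mouse 866, lowest for most of the other genes, ranked 4 from the bottom of the 10 for Cd72 and lay 0.53 above the mean of the other +/L tumours.

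The surface protein, the transcription factor and the immunoglobulin-associated protein completed the set. Ms4a1 read 5.50, 3.97, 6.28, 5.95 and 6.05 in +/L mice 20, 866, 688, 23 and 517, against 4.86, 6.27, 5.80, 4.83 and 5.22 in +/+ mice 40, 11, 101, 17 and 19. Apart from mouse 866, the +/L tumours were all above the 3 lower +/+ tumours, mice 40, 17 and 19. Pax5 read -2.63, -4.26, -2.91, -2.47 and -2.40 in +/L mice 20, 866, 688, 23 and 517, against -2.90, -2.60, -3.43, -3.05 and -3.41 in +/+ mice 40, 11, 101, 17 and 19. As for most of the genes, mouse 866 was the lowest tumour. Vpreb3 read 3.18, 2.80, 4.13, 4.11 and 4.55 in +/L mice 20, 866, 688, 23 and 517, against 3.13, 5.96, 5.10, 2.74 and 4.69 in +/+ mice 40, 11, 101, 17 and 19. Its SD was 0.73 in +/L tumours and 1.36 in +/+ tumours (n = 5 each). Its lowest tumour was +/+ mouse 17, with +/L mouse 866 next.

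**Figure D1:**
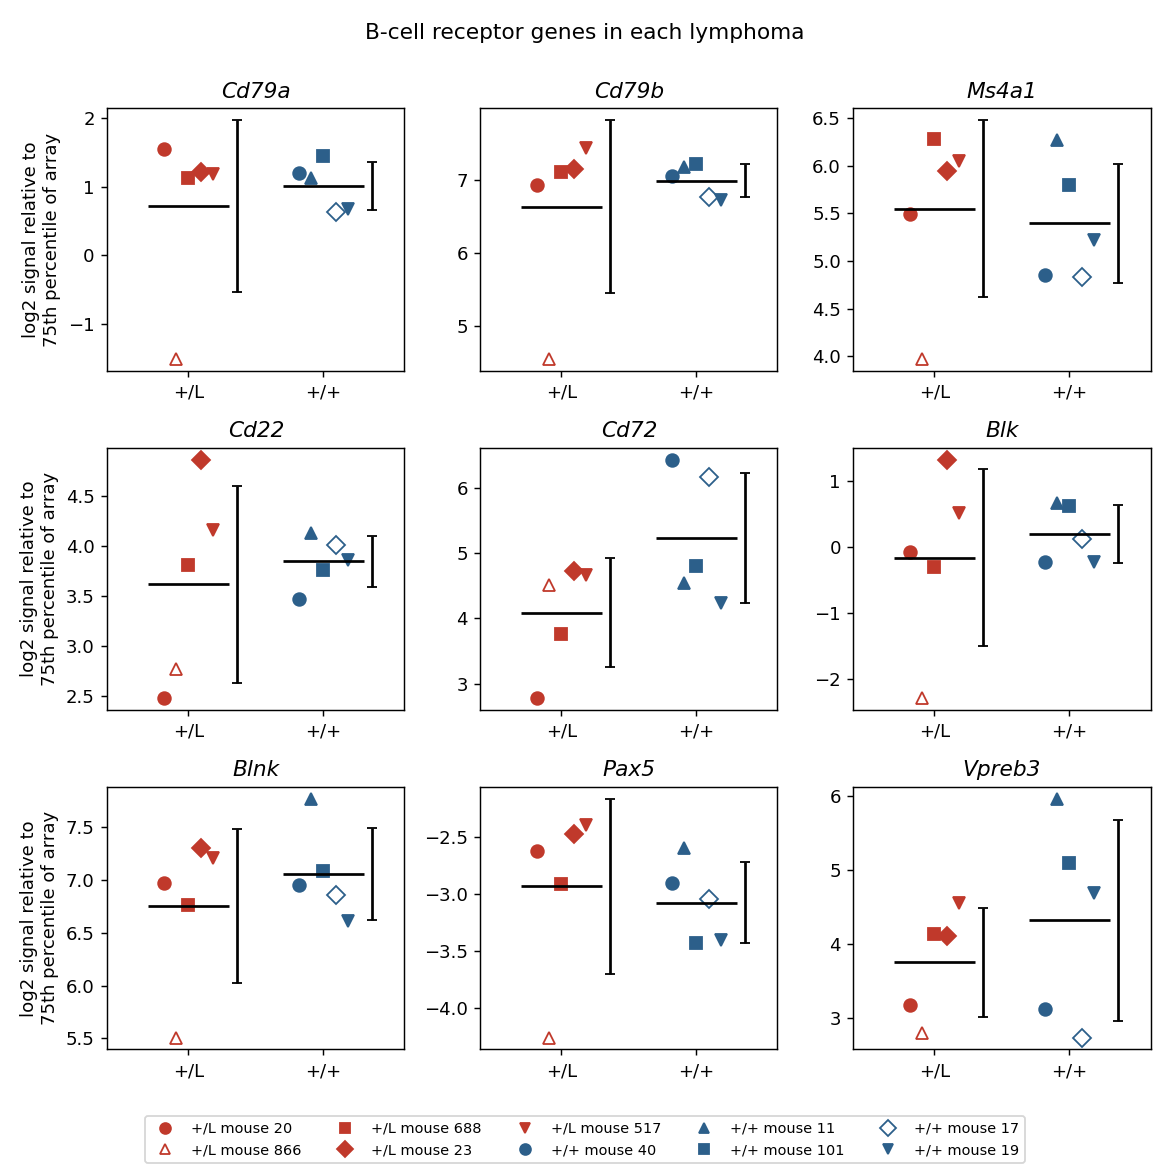
Each panel plots log2 signal relative to the 75th percentile of the array for 1 gene, with +/L tumours on the left and +/+ tumours on the right; each symbol is 1 mouse, horizontal lines are means and bars span 1 SD either side (n = 5 each). Open symbols are mice 866 and 17, whose slide labels conflict, and mouse 866 is the lowest of the 10 tumours in the panels of Cd79a, Cd79b, Ms4a1, Blk, Blnk and Pax5.

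Genotypes were compared for each gene in a limma fit over all 17774 genes, with Benjamini-Hochberg adjustment. Of the 9 genes, 7 had a lower mean in +/L tumours, where 51.9% of all genes did, and 2, Ms4a1 and Pax5, had a higher one. None of the 9 passed an adjusted p of 0.05 and none had an unadjusted p under 0.05, where 0% and 8.58% of all genes did. The groups overlapped for all 9, where 1.8% of all genes had groups that did not overlap. The median difference of the 9 was -0.30, against -0.02 for all genes. The smallest adjusted p of any gene was 0.082, so the fit called no gene at all, and 1525 genes had an unadjusted p under 0.05.

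The Cd72 difference had the lowest p of the 9. It averaged 4.09 ± 0.83 in +/L tumours and 5.23 ± 0.99 in +/+ tumours (SD, n = 5 each), a log2 difference of -1.15 ± 0.53 (SE) or a 0.452-fold level, with a 95% interval of -2.32 to 0.03 (limma p = 0.055, adjusted p = 0.59; exact two-sided permutation p = 0.11). The value was negative in all 27 settings of the processing and of the set of arrays, from -1.71 to -0.49, with adjusted p from 0.42 to 1.0. Within slide 1, which held both high +/+ tumours and +/L mouse 20, Cd72 differed by -3.03, whereas within slides 2 and 3 it differed by 0.15 and -0.01. The second Cd72 probe, which shares bases with the first, differed by -1.13 (limma adjusted p over all probes = 0.64).

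The other differences were small beside their errors. Cd79a averaged 0.71 ± 1.26 in +/L tumours and 1.01 ± 0.35 in +/+ tumours, a difference of -0.30 ± 0.53 (SE) with an interval of -1.49 to 0.88 (limma adjusted p = 0.90). Cd79b averaged 6.64 ± 1.18 in +/L tumours and 7.0 ± 0.23 in +/+ tumours, a difference of -0.35 ± 0.49 with an interval of -1.45 to 0.74 (adjusted p = 0.87). Both signs rested on 1 tumour. Without +/L mouse 866, Cd79a differed by 0.25 and Cd79b by 0.17, and within the 3 slides Cd79a differed by 0.42, 0.08 and -2.58 and Cd79b by 0.11, 0.12 and -2.43, the last value of each being that of mouse 866 against 2 +/+ tumours. Blk differed by -0.35 ± 0.57 (interval -1.63 to 0.92, adjusted p = 0.89) and by 0.18 without mouse 866. Blnk differed by -0.30 ± 0.36 (interval -1.11 to 0.50, adjusted p = 0.85) and by 0.01 without it.

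For the remaining genes the intervals also spanned 0. Cd22 averaged 3.61 ± 0.99 in +/L tumours and 3.84 ± 0.25 in +/+ tumours, a difference of -0.23 ± 0.43 (limma adjusted p = 0.91), which was -0.02 without mouse 866 and 0.05 without +/L mouse 20. Ms4a1 differed by 0.16 ± 0.46 (interval -0.87 to 1.18, adjusted p = 0.94), by 0.55 without mouse 866 and by -0.03 without +/L mouse 688. Pax5 differed by 0.14 ± 0.36 (interval -0.66 to 0.95, adjusted p = 0.93), and it was 0.48 without mouse 866 and 0.0099 without +/L mouse 517. Vpreb3 differed by -0.57 ± 0.62 (interval -1.95 to 0.82, adjusted p = 0.83), by -0.16 without +/+ mouse 11 and by -0.96 without +/+ mouse 17. The exact permutation p-values of the 9 genes lay between 0.11 and 0.90, and the splits of 5 and 5 tumours allow none below 0.0079. An interval that spans 0 does not show that the genotypes were alike: those of Cd79a and Blk reach beyond a log2 difference of -1.

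Age moved several of these values. The +/L mice were the younger group, mouse 866 was the youngest, and it was also the only +/L array of slide 3 by the headers, so the age, the array and the tumour of this mouse cannot be told apart. With age as a covariate Cd79a differed by 1.14, Cd79b by 0.91, Ms4a1 by 1.33, Blk by 1.03, Blnk by 0.67, Pax5 by 1.01 and Vpreb3 by 0.70, while Cd72 differed by -1.71. With the arrays of mice 866 and 17 exchanged, as the description labels would place them, Cd79a differed by 0.56, Cd79b by 0.53, Blk by 0.61 and Cd72 by -0.49. None of these values had an adjusted p under 0.05. The unadjusted limma p was 0.014 for Ms4a1, 0.023 for Pax5 and 0.031 for Cd79a with age as a covariate, and 0.010 for Cd72 with the labelled sex as a covariate, where Cd72 differed by -1.39. Each is the lowest p of that gene over 27 settings. The labelled sex is not met by the arrays of +/L mouse 20, the lowest for Cd72, and +/+ mouse 11.

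**Figure D2:**
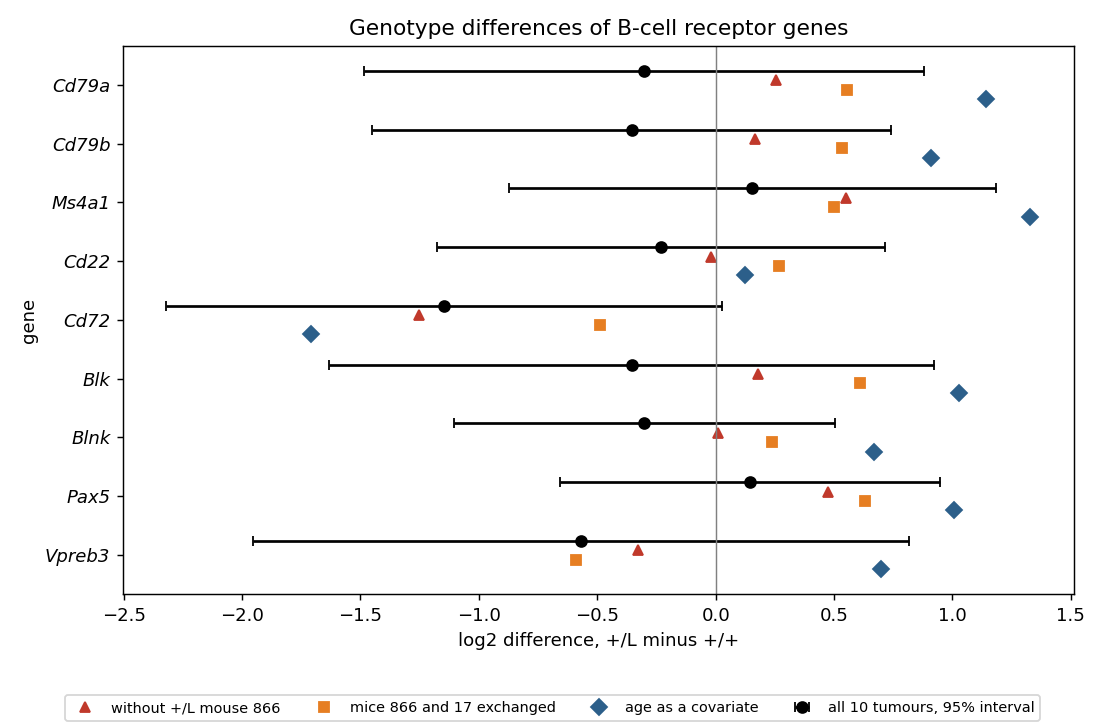
Log2 difference, +/L minus +/+, for each gene on the horizontal axis. Black points are the differences over all 10 tumours with their 95% intervals, triangles leave out +/L mouse 866, squares exchange the arrays of mice 866 and 17 and diamonds have age as a covariate; Cd72 stays left of 0 throughout, and Cd79a, Cd79b, Blk and Blnk move to the right of it.

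The tumour of +/L mouse 866 was below the mean of the 10 tumours for all 9 genes, with a median deviation of -1.40 and single deviations from -2.38 to -0.15. It was the lowest of 10 for 6 of the 9, where 16.1% of all genes were lowest in this tumour. The gap to the mean of the other +/L tumours was -2.66 for Blk, -1.97 for Ms4a1, -1.66 for Pax5, -1.56 for Blnk, -1.20 for Vpreb3 and -1.06 for Cd22. The gap of Pax5 shrank to -0.33 on values corrected for background by the normexp model and quantile-normalised, and to -0.20 in the deposited value table, and mouse 866 was still the lowest there. For Cd79a the same values were -2.43 and -2.24.

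The other tumours differed in which of the 9 genes were high or low. In +/L mouse 20, Cd22 and Cd72 were the lowest of 10 while Cd79a was the highest, and 4 of the 9 genes were below their mean. Of all genes, 16.2% were lowest and 25.2% highest in this tumour, so extremes here are common. In +/L mice 23 and 517 none of the 9 was below its mean, with median deviations of 0.40 and 0.50. Among +/+ tumours, mouse 11 had the highest Blnk and Vpreb3, where 10.3% of all genes were highest, and a median deviation of 0.41. Mouse 19 had 7 of 9 genes below the mean at a median deviation of -0.24. Mice 40 and 17, high for Cd72, had low Ms4a1 and Vpreb3.

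Markers of other cell types also varied between the tumours, and their part in the values of the 9 genes was not tested. Each list is given as its mean deviation from the 10-tumour means of its genes. In +/L mouse 866 the neutrophil markers stood at 2.81 and the NK and cytotoxic markers at 0.91, each the highest of the 10 tumours. The stromal and endothelial markers stood at 1.22, also the highest. Its adipocyte markers, at 1.94, were passed by +/L mice 20 and 688 and +/+ mouse 40, at 2.27, 4.47 and 2.16. Its T-cell markers, at 0.60, were passed by +/L mouse 688 and +/+ mouse 19, at 0.86 and 1.51. The macrophage and dendritic markers stood at 1.07 and the plasma cell markers at -1.45. The mature B-cell genes stood at -1.12 and the B-lineage transcription factors at -0.83, each the lowest of the 10 tumours. Over the groups, the neutrophil score ran from -1.60 to 2.81 in +/L tumours and from -2.89 to 1.36 in +/+ tumours, and the T-cell score from -1.74 to 0.86 in +/L tumours and from -0.93 to 1.51 in +/+ tumours. In +/L mouse 20 the plasma cell markers stood at 2.27 and the T-cell markers at -1.74, the extremes of the 10 tumours. There 9 of 10 plasma cell markers were highest, as were 25.2% of all genes. T-cell transcripts were present in all tumours, since 17 of 18 markers, all but Trat1, were well above background on every array. Cd3e, a chain of the CD3 complex bound to the T-cell receptor, read between -1.24 and 0.52 in +/L and between -0.55 and 1.82 in +/+ tumours. Cd8a, a co-receptor of cytotoxic T cells, read 3.89 in mouse 866 and between 1.14 and 3.85 in the other +/L tumours, against 0.48 to 3.97 in +/+ tumours. The altered gene itself, Cebpb, averaged 2.69 ± 0.72 in +/L tumours and 3.42 ± 0.81 in +/+ tumours (SD, n = 5 each, limma adjusted p = 0.66), and its array level is no check of the genotype because LIP is translated from the same mRNA.

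**Figure D3:**
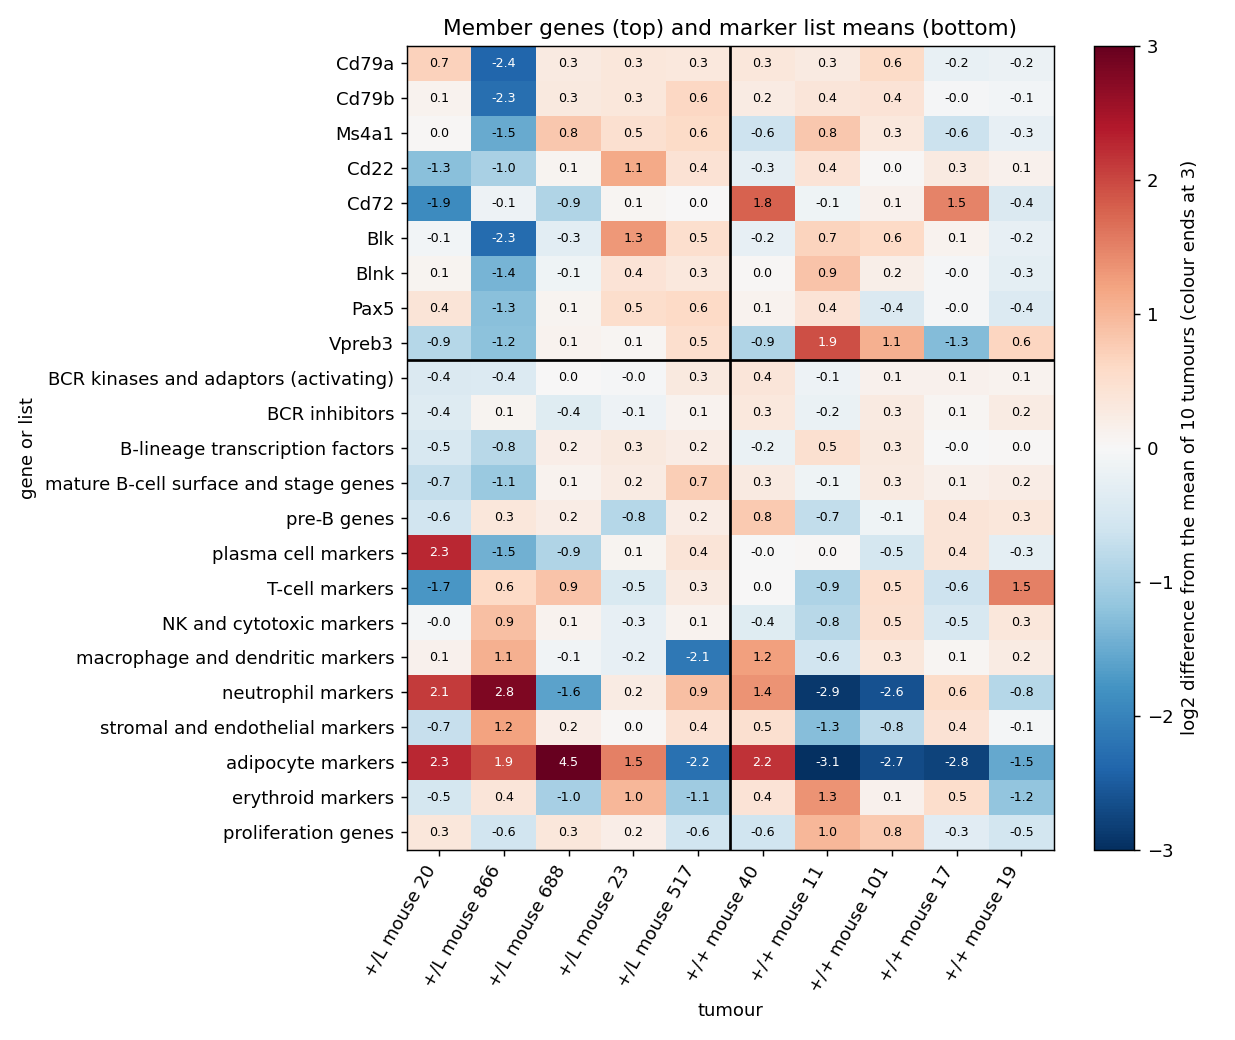
Colours and numbers are log2 deviations from the mean of the 10 tumours, for each of the 9 genes (top) and for the mean of each marker list (bottom), with +/L tumours in the left columns and +/+ tumours in the right. The column of +/L mouse 866 is blue for the B-cell genes apart from Cd72, which is near 0, and dark red for neutrophil markers at 2.8.

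Co-variation was examined over the 36 pairs of the 9 genes, with Pearson's r over the 10 tumours, a two-sided permutation test with 100000 resamples and adjustment over the 36 pairs. Most pairs moved together: the median r was 0.60, 32 pairs were positive and 16 had an adjusted p under 0.05. The tightest pair was that of the receptor chains, Cd79a and Cd79b (r = 0.96, permutation p = 0.0053, adjusted p = 0.034), although their ranks were only loosely tied (Spearman rho = 0.54, adjusted p = 0.26). Without mouse 866 their r was 0.58 (exact permutation p = 0.10, adjusted p = 0.45), and without the 2 tumours farthest from the Cd79a median, +/+ mouse 17 and +/L mouse 866, it was 0.40. This relation rests on mouse 866.

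The adaptor and the kinase, Blnk and Blk, held together best in rank. Their r was 0.92 (permutation p = 0.0018, adjusted p = 0.033) and their rho 0.93 (adjusted p = 0.0090), the only pair to pass by rank. Without mouse 866 the r was 0.73 and the rho 0.90 (adjusted p = 0.45 and 0.073), and without the 2 tumours farthest from the Blk median, +/L mice 23 and 866, the r was 0.80. Blnk with Cd79b (r = 0.89, adjusted p = 0.033) was at 0.61 without mouse 866. Ms4a1 with Cd79b (r = 0.81) and Ms4a1 with Vpreb3 (r = 0.74) moved less, to 0.70 each without it. Blk with Cd22, a kinase and an inhibitory receptor, was at 0.73 over 10 tumours and 0.67 without mouse 866.

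Cd72 stood outside this pattern. Its 8 pairs had a median r of -0.02, from -0.35 with Ms4a1 to 0.36 with Cd22, and none had an adjusted p under 0.05, whereas the 8 pairs of Blnk had a median of 0.83 with 5 past it. A difference between these medians was not tested. Cd22, the other inhibitory receptor, had a median of 0.52 over its 8 pairs, with 1 past it. The median of Blnk was the highest of all the members. Without mouse 866, which was not low for Cd72 among +/L tumours, the medians were -0.11 for Cd72, 0.56 for Blnk and 0.34 for Cd22. No pair of these genes then had an adjusted p under 0.05. The probes of the same gene agreed closely over tumours, with r = 0.99 for Ms4a1, 0.95 for Cd22, 0.995 for Cd72 and 0.998 for Vpreb3. The Cd72 probes share bases, so their agreement is partly given by their design.

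Single tumours decided how many pairs passed. Without +/L mouse 866 no pair had an adjusted p under 0.05, 3 had an unadjusted p under 0.05, the median r was 0.38 and 29 pairs were positive. By Spearman's rho 1 pair passed over 10 tumours, 6 at an unadjusted p, and none passed without mouse 866, 2 at an unadjusted p. Leaving out +/+ mouse 17 or 19 also left 0 pairs by Pearson's r, although r itself hardly moved there, at 0.96 for the receptor chains each time. Without +/L mouse 23, +/L mouse 517 or +/+ mouse 11, 6 pairs passed. Within a genotype or a slide there were under 6 tumours, too few for a correlation.

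**Figure D4:**
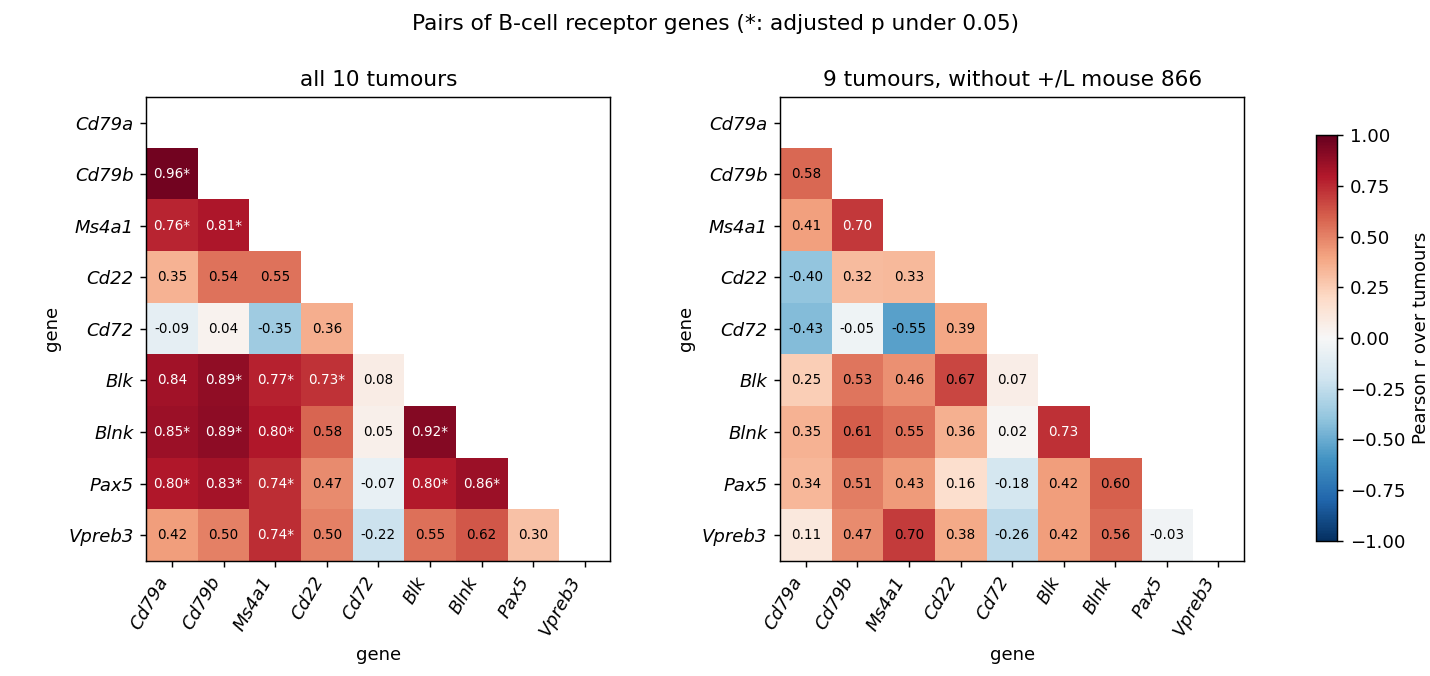
Pearson's r for each pair of genes over all 10 tumours (left) and over the 9 tumours without +/L mouse 866 (right), with an asterisk where the adjusted p is under 0.05. The left panel has 16 asterisks and the right none, and the row and column of Cd72 are pale in the left panel.

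Of the genes outside the set, 14210 with a symbol were ranked by their mean r with the 9 genes over the 10 tumours. This is a description with no p, since all share the same tumours. Unnamed transcripts, clone names and most immunoglobulin and T-cell receptor genes were left out beforehand, so their absence from the ranking is no result. The 10 most alike were Rpgrip1, Rnf216, Dyrk1a, Olfr522, H2-Ob, Gtf2a1, Clasp1, Ly6d, Bcar3 and Ttpal, with mean r from 0.71 to 0.67. H2-Ob, a chain of an MHC class II chaperone of B cells, was at 0.69, and Ly6d, a surface protein found on B-lineage cells, at 0.68. The 5 least alike were Adgrg3, Sema3a, Ctsl, F3 and Adamts2, from -0.71 to -0.68, among them the lysosomal protease cathepsin L (Ctsl) and tissue factor (F3). Over the 9 tumours without mouse 866 the most alike were Cerk, Trio, Ppip5k1, Hemgn, Ccng2, Senp6, Gtf2a1, E2f3, Snrnp25 and Tln2, from 0.58 to 0.54, so Gtf2a1 was in both rankings. H2-Ob, Ly6d and Rpgrip1 were not among the 10 without that tumour.

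The wider pathway was read from gene lists, each given by its counts. The background was 0% of genes called, 51.9% of genes lower in +/L tumours and a median difference of -0.02. Of 26 activating kinases and adaptors, 18 were lower and 8 higher in +/L tumours with a median difference of -0.28, and none passed. Those with low p-values included Vav1, an exchange factor that acts beside BLNK, and Pik3ap1, an adaptor for PI3-kinase. Vav1 read 3.30, 3.36, 3.56, 3.65 and 3.32 in +/L mice 20, 866, 688, 23 and 517, against 4.14, 3.91, 4.45, 3.69 and 3.90 in +/+ mice 40, 11, 101, 17 and 19. The groups did not overlap, and the difference was -0.58 ± 0.19 (SE, limma adjusted p = 0.54). With the arrays of mice 866 and 17 exchanged they overlapped, and the difference was -0.45. Pik3ap1 differed by -0.89 ± 0.34 (SE, limma adjusted p = 0.56) and by -0.22 with these arrays exchanged.

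Of 12 inhibitors of the receptor signal, 10 were lower and 2 higher in +/L tumours, with a median of -0.34 and none past the threshold. Ptpn6 encodes SHP-1, the phosphatase that CD22 and CD72 recruit. It read 4.75, 4.66, 4.86, 5.17 and 5.14 in +/L mice 20, 866, 688, 23 and 517, against 6.46, 5.45, 6.21, 5.49 and 5.53 in +/+ mice 40, 11, 101, 17 and 19, again with no overlap, which 1.8% of all genes showed. Both genes were picked from their lists for their low p. Its difference was -0.91 ± 0.25 (SE, limma adjusted p = 0.54). With the arrays of mice 866 and 17 exchanged the groups overlapped and the difference was -0.58, and with the mean of all its probes it was -0.50. Inpp5d, the lipid phosphatase SHIP-1, differed by -0.59 ± 0.24 (adjusted p = 0.57) and Dusp6, a phosphatase of the MAP kinase ERK, by -0.41 ± 0.25 (adjusted p = 0.66). Ptpn6, Vav1 and Spi1 are also expressed in myeloid cells, and 9 of 11 macrophage and dendritic markers were lower in +/L tumours, with a median difference of -0.99. Their score ran from -2.13 to 1.07 in +/L tumours and from -0.58 to 1.24 in +/+ tumours, and its part in these values was not tested.

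Of 16 B-lineage transcription factors other than Pax5, 11 were lower and 5 higher, with a median of -0.26. Spi1, which encodes PU.1, differed by -0.84 ± 0.31, Pou2f2, which encodes the octamer-binding OCT-2, by -0.94 ± 0.35 (limma adjusted p = 0.55 and 0.56), and Spib by -0.66 ± 0.41 (adjusted p = 0.67). With the arrays exchanged Pou2f2 differed by -0.28 and Spib by -0.13. Of 19 tested mature B-cell genes, 13 were lower and 6 higher, with a median of -0.29. Fcrl5, an Fc receptor-like protein, differed by -1.77 ± 0.70 (adjusted p = 0.56), with its highest value, as for Cd72, in +/+ mouse 40. Swap70 differed by -0.55 and Tnfrsf13c, the receptor for the survival factor BAFF, by 0.71 (adjusted p = 0.69 and 0.70). Of 7 tested pre-B genes, 6 were lower and 1 higher, none with an unadjusted p under 0.05. Dntt differed by -0.66, Il7r by -0.58 and Cd93 by -0.40, the last with the other sign, at 0.66, when the arrays of mice 866 and 17 were exchanged. With the slide of the description labels as a block Il7r differed by 0.17. Vpreb1, a surrogate light chain gene, passed as well above background on 4 +/L arrays and 5 +/+ arrays, and Igll1, Rag1 and Rag2 did not pass the filter on dim probes.

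Lists of other cell types were compared in the same fit, and none of their genes passed. The adipocyte list had the largest median difference of the 14 lists, 2.95, with 6 of 6 tested markers higher in +/L tumours. Its score ran from -2.23 to 4.47 in +/L tumours and from -3.12 to 2.16 in +/+ tumours. Retn, Cfd and Cidec differed by 3.44, 5.03 and 4.22, and were well above background on 4, 5 and 5 arrays of +/L tumours but on 1, 4 and 2 of +/+ tumours. All 10 neutrophil markers were higher in +/L tumours, where their score ran from -1.60 to 2.81, against -2.89 to 1.36 in +/+ tumours, and Cxcr2, S100a9 and Retnlg differed by 2.11, 2.99 and 2.26. Of 9 NK and cytotoxic markers 6 were higher, with Gzma at 1.14, Ncr1 at 1.09 and Klre1 at 0.59, and of 10 stromal and endothelial markers 6 were higher, with Lum at 2.76, Col3a1 at 1.70 and Pdgfrb at -0.63. In the macrophage and dendritic list Itgax, C1qc and C1qa differed by -1.74, -1.33 and -1.44, while 2 of the 11 tested markers were higher, by 2.58 and 1.79. Of 10 plasma cell markers 5 were higher, with Fkbp11 at 2.08, Prdm1 at -0.49 and Sdc1 at 0.71, and of 18 T-cell markers 4 were higher, with Cd3e at -0.78, Trat1 at 0.84 and Zap70 at -0.75. All 3 tested erythroid markers, Hba-a1, Alas2 and Slc4a1, were lower, and of 10 proliferation genes 6 were lower, with Bub1 at -1.01, Birc5 at 0.30 and Plk1 at -0.30. By limma the adjusted p of each gene named here was 0.54 or more. With the arrays of mice 866 and 17 exchanged Cfd differed by 1.53, Cidec by 1.52, Retnlg by 0.86, S100a9 by 1.62, Lum by 1.14 and Bub1 by -0.30, and with age as a covariate Gzma differed by -0.59, Col3a1 by -0.38, Trat1 by -0.13, Prdm1 by 0.21 and Plk1 by 0.45. Signs also turned for Sdc1 among mice labelled female, at -0.38, and for Slc4a1 without +/L mouse 688, at 0.15.

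The promoters of the 9 genes, where an entry was given, were searched for motifs of B-lineage factors, in windows of 300 bases around the start site from RefSeq on GRCm38.p6. Of the 9 genes, 6 had an entry: Cd79a, Cd22, Cd72, Blnk, Pax5 and Vpreb3. The octamer ATGCAAAT, bound by OCT-2 and OCT-1, was searched on both strands and found in Blnk and Vpreb3, and in 1.74% of 32851 promoters. It begins 130 bases before the start site of Blnk and 45 bases before that of Vpreb3. The motif CAGGTG of E2A was found in Cd79a, Cd22 and Blnk and in 20.2% of promoters, CCCNNGGG of EBF1 in Cd22 and in 13.7%, and GAGGAAG of PU.1 in Cd72 and in 13.6%. None of the motifs overlapped another in these promoters. The windows of Blnk and Vpreb3 are shown because they hold the rarest motif, in capitals as it reads on the gene's strand, with the E2A motif of Blnk also in capitals. They lie at chr19:40994332-40994391 (minus strand) and chr10:75948215-75948274 (plus strand). A match is a description of the sequence and not a measured binding site.
Blnk: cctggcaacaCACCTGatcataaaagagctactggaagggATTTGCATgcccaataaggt
Vpreb3: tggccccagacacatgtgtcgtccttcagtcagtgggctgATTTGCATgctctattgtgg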

How the data were processed

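Each of 10 lymphoma RNAs was hybridised to 1 Agilent mouse array labelled with Cy3. The intensity values were extracted by the authors with Agilent's Feature Extraction software (version 10.5.1.1), according to the headers the authors deposited, with background subtraction and detrending within the array. The flags for well above background, saturation and outliers are other values of the same software, per the file headers. A deposited table of log2 values covers these arrays with nearly equal medians; its background method and offset are not given in the sources used here, and it served as an alternative only.

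Processed signals were log2-transformed and the 75th percentile of 43379 non-control spots was subtracted per array. Outlier-flagged spots, 42 to 181 per array, were left out, and replicate spots were averaged. Probes left without a value on any array were dropped, among them 69 bright enough for the filter. The filter kept 26409 probes, those above background by the software's flag on 3 or more arrays, and the probe of highest mean stood for a gene. RefSeq accessions updated the names of 25089 probes, symbols those of 6339 and synonyms those of 1639, while 8107 stayed as in the files. Of 17774 genes and transcripts, 14796 had a current symbol.

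The genotype comparison used limma 3.58.1 (lmFit, eBayes, no covariate) in R 4.3.3, and single genes also by exact permutation in scipy 1.17.1. Replicates are separate mice. The procedure was tested on simulated data. The genes, lists and tests were chosen with earlier results of these data known. Named genes were the members, the 3 of lowest p per list, the 10 most and 5 least alike by mean r, Cd3e, Cd8a and Cebpb; others named are list members chosen after their values were seen. The naming rule selects 2 further genes, 1 of them in the likeness ranking, that are not reported here, and the ranking skips that gene. Alternatives varied background, scaling, filter, probe rule, covariates, slide block, test and set of arrays.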

Additional observations from a re-analysis of the deposited data

Results flagged for a closer look

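Among the 18 groups formed by 9 genes and 2 genotypes, 3 held a tumour whose gap to the nearest other exceeded 0.71 of the group's range, the critical value of Dixon's test for 5 samples. All 3 were in +/L mouse 866: Cd79a at -1.52, next to 1.13 in mouse 688, Cd79b at 4.56, next to 6.93 in mouse 20, and Pax5 at -4.26, next to -2.91 in mouse 688. Chance gives about 1 in 20 groups, and the 3 values come from 1 array, so they are not independent.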

How the results depend on the processing

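Cd72 kept its sign under all 26 alternatives, and no gene of the 9 had an adjusted p under 0.05 in any. Of the 9 genes, 7 were lower in +/L; this count was 3 without mice 866 and 17, 2 with these arrays exchanged, 1 with age as a covariate and 3 to 8 when 1 mouse was left out, the 3 being without +/L mouse 866. Over these leave-one-out fits Cd79a ranged from -0.51 to 0.25, Cd79b from -0.55 to 0.17, Ms4a1 from -0.028 to 0.55, Cd22 from -0.54 to 0.054, Blk from -0.73 to 0.18, Blnk from -0.44 to 0.0091, Pax5 from 0.0099 to 0.48 and Vpreb3 from -0.96 to -0.16. Signs also turned without mice 866 and 17 (Cd79a 0.16, Cd79b 0.11, Cd22 0.022, Blk 0.16), with these arrays exchanged (Cd79a 0.56, Cd79b 0.53, Cd22 0.27, Blk 0.61, Blnk 0.24) and with age as a covariate (Cd79a 1.14, Cd79b 0.91, Cd22 0.13, Blk 1.03, Blnk 0.67, Vpreb3 0.70). Cd22 was at 0.13 without mice 20 and 11 and at 0.12 in female-labelled mice, where Vpreb3 was at 0.38. Pax5 was at -0.084 on normexp and quantile-normalised values, -0.052 in the deposited table, where Cd22 was at 0.0022 and Blnk at 0.095, -0.11 with the header slide as a block, where Ms4a1 was at -0.068, and -0.12 with the slide of the description labels. The cause was not tested.

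Over all genes, 0 passed, against 1 on normexp values, 1 in the deposited table and 0 to 3 when 1 mouse was left out, the 3 being without +/L mouse 517. The 1525 genes at an unadjusted p under 0.05 became 670 with the arrays exchanged, 2522 without mice 20 and 11, 668 with the slide of the description labels as a block, and 913 (without +/+ mouse 101) to 2314 (without +/L mouse 20). They were 558 higher and 967 lower in +/L, or 668 and 808 with each array scaled to its median over probes measured well everywhere. The 16 pairs became 3 on normexp values, 2 in the deposited table, 1 by Spearman's rho, 8 without mice 20 and 11, 0 without mice 866 and 17, and 0 to 17 when 1 mouse was left out. The lists had 0 genes past the threshold in every setting run. No paired analysis was possible because the genotypes share no replicate numbers.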
